A study of Mus musculus with 2 samples.

Results

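The miR-30 family was followed in colonic epithelial cells isolated from mice with and without chemically induced colitis. Its members were chosen by exact probe name: 8 miR-30 probes on the array, out of 1899 usable mouse miRNA probes. They comprise 5 guides from the 5p side of the hairpin (mmu-miR-30a-5p, mmu-miR-30b-5p, mmu-miR-30c-5p, mmu-miR-30d-5p and mmu-miR-30e-5p) and 3 arms from the 3p side (mmu-miR-30a-3p, mmu-miR-30d-3p and mmu-miR-30e-3p), where mmu stands for mouse. Both groups were C57BL/6 mice aged 8 weeks. The control group carries no agent, and the other group received dextran sulfate sodium (DSS), a polymer that damages the lining of the colon, at 2.5% in the drinking water for 5 days. Total RNA was labelled with the red fluorescent dye Hy5 and hybridised in 1 colour, with 1 array per group and 1 spot per miRNA. No difference below therefore has a replicate check, a standard error or a p-value, and pooling of mice is not mentioned in the sources used.

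A miRNA hairpin is cut by Dicer into a duplex of a 5p and a 3p strand. As a rule 1 strand, the guide, is loaded into an Argonaute protein and the other, the passenger, is mostly degraded. The guide represses messenger RNAs that pair with its seed, bases 2 to 8 from its 5′ end. In the miR-30 family the 5p strand is the principal guide, although the 3p strands of miR-30a and miR-30e are also found loaded. Targets described for the miR-30 guides include the transcription factor Snai1, the matricellular protein Ctgf and the Notch ligand Dll4. In intestinal epithelium the family has been described as acting on the balance between proliferation and differentiation.

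The mature sequences below are shown because members of each arm share a seed. Among those shown, the strands of miR-30a and miR-30e are also nearly identical over their whole length, so that a probe may bind its neighbour. The sequences were taken from RefSeq (GRCm38.p6), which held 5 of the 8 members and lacked miR-30b-5p, miR-30d-5p and miR-30d-3p. Capitals mark the seed.
miR-30a-5p: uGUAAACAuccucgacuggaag
miR-30e-5p: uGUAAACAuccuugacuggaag
miR-30c-5p: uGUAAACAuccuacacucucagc
miR-30a-3p: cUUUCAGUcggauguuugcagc
miR-30e-3p: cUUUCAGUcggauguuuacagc
The guides of miR-30a and miR-30e differ by a single substitution, C13U (miR-30a base, position from the 5′ end, miR-30e base), and their 3p arms by G18A. miR-30c-5p shares its first 12 bases with miR-30a-5p. Among 1679 mature names in the RefSeq table the seed GUAAACA occurs in 4, namely these 3 guides and miR-384-5p, and UUUCAGU occurs in miR-30a-3p and miR-30e-3p. These counts leave out the members absent from that table, whose seeds and likeness to the strands shown were not compared. The 3p arms of miR-30a and miR-30e thus share no seed with their own guides. How far the probes separate such near-identical strands is unknown from the sources used, so members are not independent measurements.

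The hairpins of miR-30a and miR-30e show how both arms come from 1 precursor. Capitals mark the 5p arm and then the 3p arm.
Mir30a: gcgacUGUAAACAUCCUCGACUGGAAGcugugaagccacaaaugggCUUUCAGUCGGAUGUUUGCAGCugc
Mir30e: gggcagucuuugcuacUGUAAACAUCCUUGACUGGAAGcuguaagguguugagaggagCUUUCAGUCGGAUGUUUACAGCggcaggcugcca
Mir30a lies at chr1:23272269-23272339 on the plus strand, with Mir30c-2 on the same strand 19361 bases away. Mir30e lies at chr4:120772606-120772697 on the minus strand, 2983 bases from Mir30c-1. miR-30c-5p is encoded with the same sequence in both Mir30c-1 and Mir30c-2, so its single probe reads the sum of 2 genes.

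A miRNA was counted as measured where its spot exceeded the trimmed mean of the blank spots by more than 2 SD, a limit of 99.6 intensity units for the control and 130.9 for the DSS array. Blank spots averaged 92.7 and 121.8. Below, paired values give the control array first. By this rule 4 of the 8 members were measured on both arrays, against 52.4% of all miRNA probes. The others were 2 measured with DSS alone (9.16% of all probes), 1 in the control alone (3.95%) and 1 below the limit throughout (34.5%). The split followed the arms: 4 of 5 guides were measured on both arrays and 0 of 3 of the 3p arms. Among the other probes on the array the 2 sides did not differ in this way, with 52.3% of 5p and 51.2% of 3p probes measured on both. Those shares do not sort probes into guides and passengers. Outside the 8 members, the 3p arm miR-30c-2-3p was measured on both arrays, while miR-30b-3p and miR-30c-1-3p were not. The limit does not separate dim miRNAs from empty spots in full. Of 174 spots named No Probe, 17 passed it in the control and 54 in the DSS sample, but only 3 passed it on both.

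**Figure D1:**
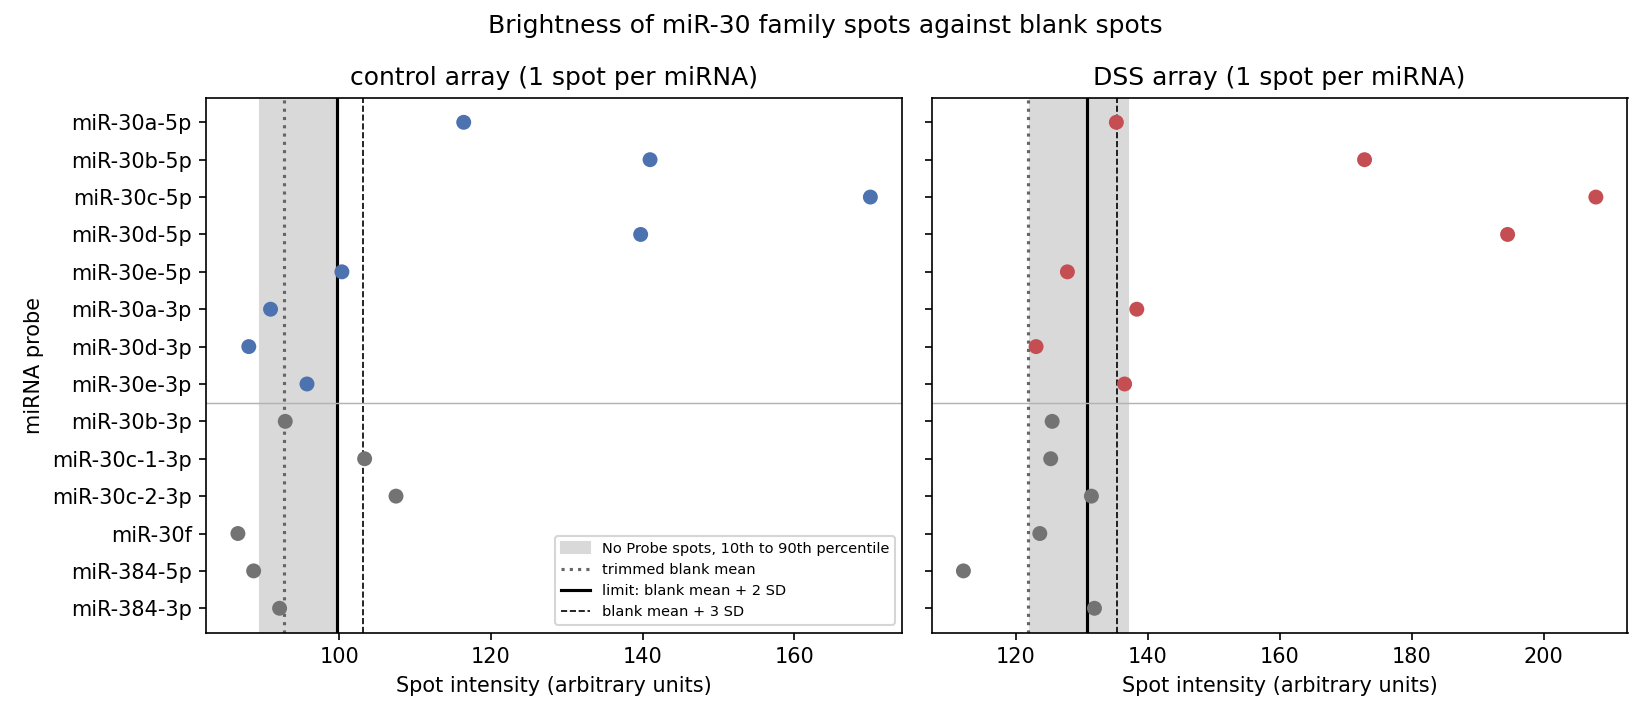
Spot intensity (x axis, arbitrary units) of the 8 members (coloured) and 6 related probes (grey) on each array, 1 spot per point, with the trimmed blank mean (dotted), the limits at 2 SD (solid) and 3 SD (dashed) and the central range of No Probe spots (shaded). miR-30b-5p, miR-30c-5p and miR-30d-5p stand clear of the shading on both arrays, and the 3p arms lie in or beside it.

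mmu-miR-30c-5p had spot intensities of 170.0 and 207.9. Above the blanks this was 77.4 and 86.1, and no blank or No Probe spot reached it on either array. mmu-miR-30d-5p stood at 139.7 and 194.5, or 47.1 and 72.7 above the blanks. Its signal over the blanks was 1.54-fold higher with DSS before any scaling, the highest ratio among the guides measured on both arrays. mmu-miR-30b-5p, whose gene is a neighbour of that of miR-30d, stood at 141.0 and 172.8, or 48.3 and 51.0 above the blanks. Before scaling its signal over the blanks was nearly the same on both arrays, 1.06-fold.

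mmu-miR-30a-5p was the 1 guide measured on both arrays whose signal over the blanks was lower with DSS, at 23.7 and 13.4. Its spot read 116.4 and 135.2, and on the DSS array 25 of 174 No Probe spots were brighter. With a limit at 3 SD (135.4 on the DSS array) it would no longer count as measured there, leaving 3 of the 8 members on both arrays. The mean of the 16 Negative Control 1 spots, 137.6, was above it as well. mmu-miR-30e-5p, 1 base apart from miR-30a-5p, was just over the limit in the control (100.3) and under it with DSS (127.8). At 3 SD it would be measured on neither.

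The arrays were set on a common scale by correcting the background with limma's normexp model with an offset of 50, taking log2 and quantile normalising over the miRNA probes. The offset keeps dim spots stable and shrinks their folds. On this scale mmu-miR-30d-5p stood at 6.70 and 7.24, a log2 difference of 0.54 (DSS minus control) or 1.45-fold. mmu-miR-30c-5p followed with 0.36 (7.02 and 7.38), and mmu-miR-30b-5p with 0.20 (6.72 and 6.92). mmu-miR-30a-5p was lower with DSS, at −0.19 (6.41 and 6.22).

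Thus 3 of the 4 guides measured on both arrays were higher with DSS, where 48.1% of the 995 miRNAs measured on both arrays were. None of the 4 guides reached 2-fold, a size reached by 1.51% of these miRNAs. The median of the guides was 0.28, beside a median of −0.004 over all 995, whose central 95% ran from −0.76 to 0.65. All 4 guides lay inside that range, as they did in 8 of 13 ways of processing. In the others, of which 4 scale by 1 factor per array or not at all, miR-30d-5p lay just above it (0.40 against 0.39 with median scaling). A larger increase than that of miR-30d-5p was seen in 39 of the 995 miRNAs, and 160 had a lower value than miR-30a-5p.

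**Figure D2:**
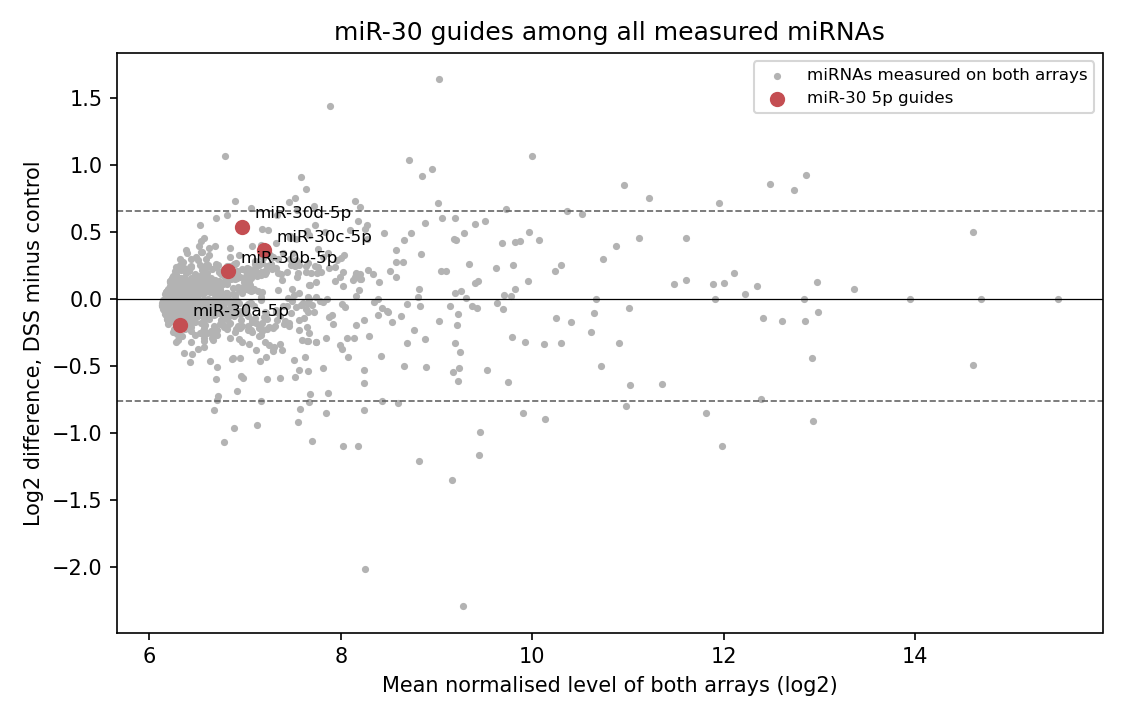
Log2 difference, DSS minus control (y axis), against the mean normalised log2 level of both arrays (x axis) for the 995 miRNAs measured on both arrays (grey) and the 4 miR-30 guides (red), with dashed lines at −0.76 and 0.65. The guides lie in the lower part of the range of the x axis, from miR-30a-5p at −0.19 to miR-30d-5p at 0.54, inside the dashed lines.

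Only the repeated control spots give an error of measurement, and it covers the spread of spots within an array alone. The means of 6 sets of control spots lay above the limit and under 250 units on both arrays. Their SD of a log2 difference between the arrays ran from 0.069 to 0.263, with a median of 0.106. Negative Control 3, QC-Probe, S-Probe2 and S-Probe7 were dimmer on the control array than each guide measured on both arrays. The highest SD came from QC-Probe (105.5 and 136.4), and thus not from the brightness of miR-30b-5p, miR-30c-5p and miR-30d-5p. These SDs were taken before quantile normalisation, which widened the range of the 4 guides (0.73, against 0.47 with no scaling). After it the differences of miR-30c-5p and miR-30d-5p exceeded the highest of these SDs, while those of miR-30a-5p and miR-30b-5p did not. With no scaling, which is the scale of the SDs, only miR-30d-5p (0.34) exceeded it. The others were then at 0.12 (miR-30c-5p), 0.07 (miR-30b-5p) and −0.13 (miR-30a-5p). In the order of the guides the gap was 0.18 from miR-30d-5p to miR-30c-5p and 0.16 from miR-30c-5p to miR-30b-5p, both under 0.263. The gap of 0.40 between miR-30b-5p and miR-30a-5p was above it after quantile normalisation, but the gap between their values with no scaling was not.

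The order of the 4 guides was the same in all 13 ways of processing tried, with miR-30d-5p highest and miR-30a-5p lowest, although scalings by 1 factor per array cannot change an order. Their direction was not. The spike control spots were 2.05-fold and 1.88-fold brighter over the blanks on the DSS array, and scaling to them set the median of all miRNAs to −1.02. On that scale miR-30d-5p was at −0.63, miR-30c-5p at −0.85, miR-30b-5p at −0.89 and miR-30a-5p at −1.10. The guides' median of −0.87 then lay 0.15 above that of all miRNAs, of which 0.101% stayed above 0 and 55.2% were at least 2-fold lower. The authors' deposited table, which carries no offset, listed miR-30d-5p at 26.5 and 57.2, a log2 difference of 1.11. It was the 1 guide of 4 past 2-fold in that table, where 8.94% of the miRNAs were that much higher. The same table gave 0.64 for miR-30c-5p, 0.56 for miR-30b-5p and −0.34 for miR-30a-5p, so that 3 of 4 guides were higher where 63.9% of all miRNAs were, with a median of 0.21. With plain subtraction of the blank mean miR-30d-5p was also past 2-fold (1.08), where 3.42% of all miRNAs were that much higher.

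**Figure D3:**
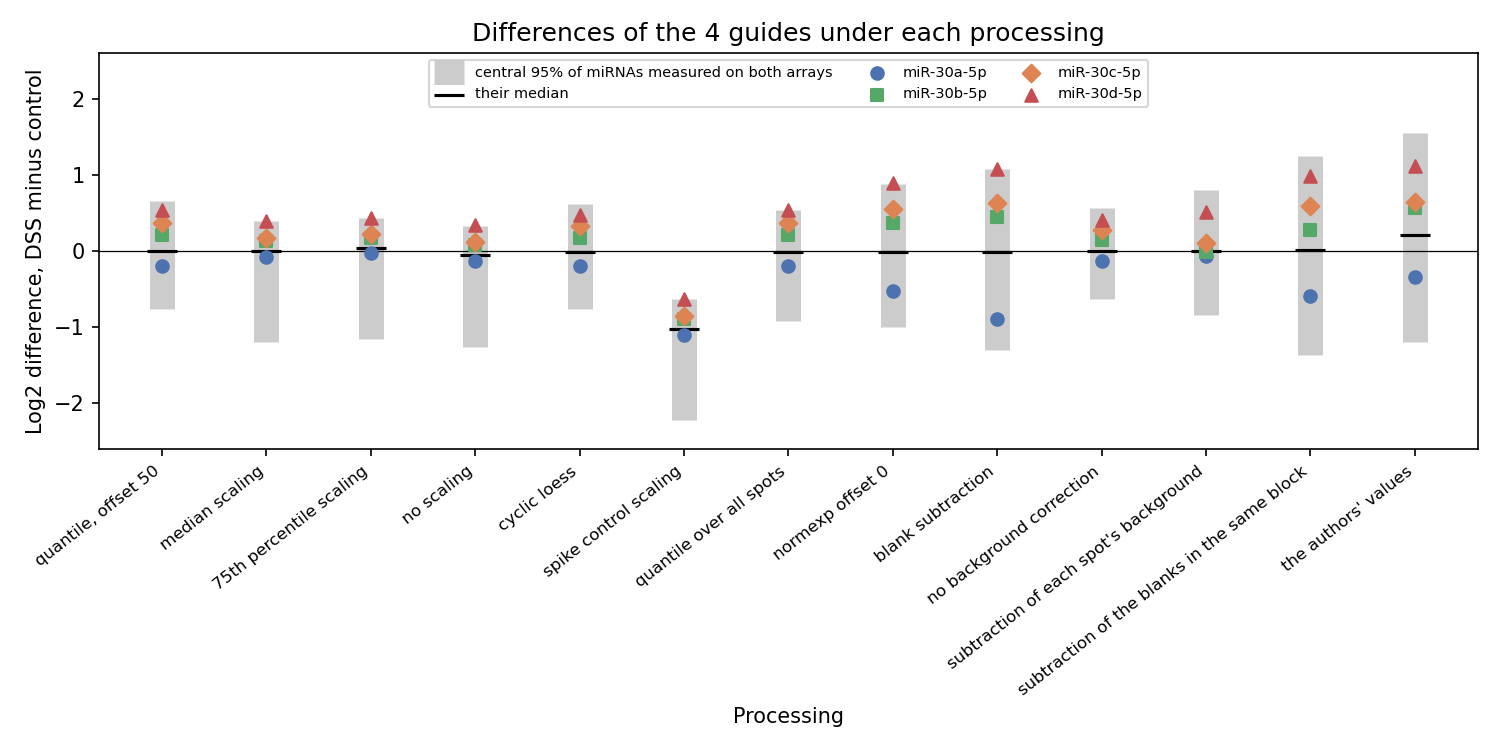
Log2 difference, DSS minus control (y axis), of the 4 guides under each of 13 ways of processing (x axis), with the central 95% (grey bar) and median (black line) of the 995 miRNAs measured on both arrays. miR-30d-5p is highest and miR-30a-5p lowest each time, and scaling to the spike controls puts all 4 below 0.

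The files also give a background intensity for each spot, and on the control array it almost equalled the spot for miR-30c-5p and miR-30d-5p. It was 169.9 and 139.0 there, leaving 0.16 and 0.70 units, while miR-30a-5p kept 18.6, miR-30b-5p 13.01 and miR-30e-5p 9.87. On the DSS array it was 180.7 and 120.5, leaving 27.2 and 74.1. In blank spots the spot exceeded this value by a median of 8.68 (control) and 28.2 (DSS). miR-30d-5p on the DSS array was thus the 1 guide above the median of the blanks by this measure there, since miR-30a-5p kept 23.2, miR-30b-5p 24.1 and miR-30e-5p 27.4. The 3p arms kept 30.7 (miR-30d-3p), 32.4 (miR-30a-3p) and 33.3 (miR-30e-3p). Subtracting the given background before normalisation left miR-30d-5p at 0.52, miR-30c-5p at 0.11, miR-30b-5p at −0.02 and miR-30a-5p at −0.06, so that 2 of 4 were above 0, beside 49.4% of all miRNAs. The area this background was read from is unknown from the sources used, and the value may hold part of the spot's own signal.

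**Figure D4:**
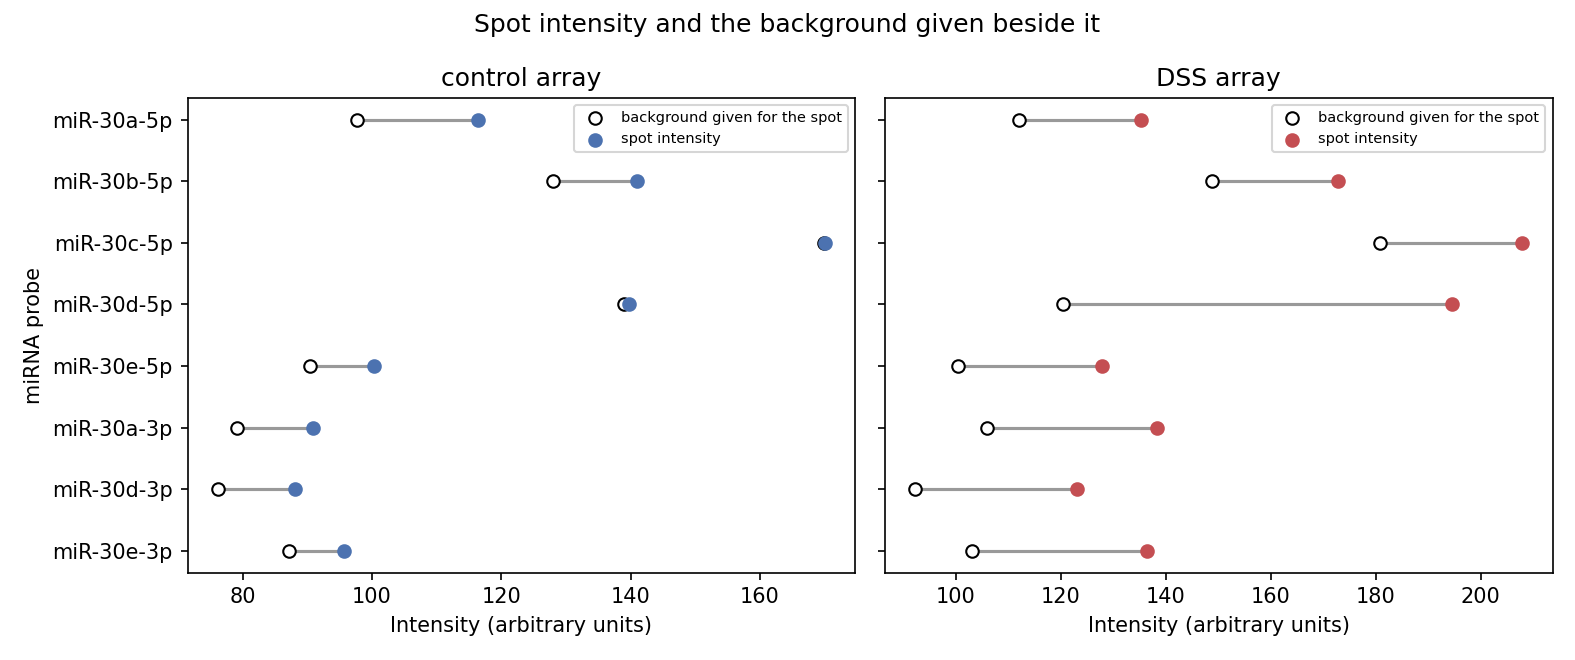
Spot intensity (filled) and the background given for the same spot (open) in arbitrary units (x axis) for the 8 members on each array, 1 spot per miRNA. For miR-30c-5p and miR-30d-5p both values nearly coincide in the control panel, and in the DSS panel miR-30d-5p has the widest gap (74.1 units).

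The 3p arms were at the edge of detection. mmu-miR-30a-3p read 90.9, under the blank mean, and 138.3 with DSS, where it passed the limit and 12 of 174 No Probe spots were brighter. mmu-miR-30e-3p read 95.7 and 136.5, and 21 No Probe spots were brighter on the DSS array. Both were therefore measured on the DSS array only, a class that held 9.28% of the other 3p probes. It also held 51 of the 174 No Probe spots (29.3%). mmu-miR-30d-3p read 88.0 and 123.1 and was measured on neither array.

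For a miRNA measured on 1 array the difference is a bound, taken against the lowest value measured on the other array. After normalisation with the offset miR-30a-3p was at least 1.11-fold and miR-30e-3p at least 1.07-fold higher on the DSS array, and miR-30e-5p at least 1.04-fold lower. These directions depend on the scaling. The log2 difference of miR-30e-5p, −0.12 in this processing, became 0.08 (median scaling), 0.13 (75th percentile), 0.03 (no scaling) and 0.02 with subtraction of the background given for each spot. With scaling to the spike controls miR-30a-3p was at −0.52 and miR-30e-3p at −0.67. In the authors' deposited table, miR-30a-3p (13.01) was at least 3.30-fold and miR-30e-3p (11.6) at least 2.94-fold above the lowest listed control value of 3.94. miR-30e-5p (4.31 on the control array) lay under the lowest listed DSS value of 7.14, so that no bound can be given there. The highest mean of a set of negative control spots on the DSS array, 137.6, lay between both 3p arms. Whether the spots of the 3p arms hold more than empty spots on that array was not tested.

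Set arm against arm within a hairpin, the members fell into 3 patterns. miR-30d had its guide on both arrays and its 3p arm on neither, as did 10.4% of 721 other hairpins with both arms on the array. miR-30b, whose 3p arm is no member of the set, showed the same. miR-30a had its guide on both arrays, lower with DSS, and its 3p arm with DSS alone, a combination of measured arms found in 2.91% of the other hairpins. miR-30e had its guide in the control alone and its 3p arm with DSS alone, found in 1 of the 721 (0.139%). The reverse, a 5p arm with DSS alone and a 3p arm in the control alone, was found in 2. These classes depend on the limit. At 3 SD miR-30e-5p is measured on neither array, while miR-30a takes the pattern just given for miR-30e, its guide being measured in the control alone and its 3p arm with DSS alone. None of the 3p arms of miR-30a, miR-30d and miR-30e was measured on both arrays, so their differences could not be set against those of their guides.

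Of the 6 other miR-30 arms and relatives, 1 was measured on both arrays. This was miR-30c-2-3p, at 107.5 and 131.4, with a log2 difference of −0.15, smaller than the highest spread of control spots. On the DSS array it only just passed the limit of 130.9, and 49 of 174 No Probe spots were brighter. At 3 SD (135.4) it would not count as measured there. It comes from the Mir30c-2 hairpin, whose guide miR-30c-5p was at 0.36. The guide's difference exceeded that of the 3p arm by 0.51, beside a median of −0.08 and a central 95% from −0.82 to 0.69 over 267 other hairpins with both arms measured on both arrays. The signs of these arms were not opposite in every processing: miR-30c-2-3p was at 0.01 with median and 0.06 with 75th percentile scaling, and both arms were below 0 with scaling to the spike controls (−1.01 for the 3p arm). The excess of the guide over the 3p arm was 0.16 with each scaling by 1 factor per array. miR-30c-5p also comes from Mir30c-1. miR-30c-1-3p was measured on the control array only (103.3 against 125.3) and miR-384-3p on the DSS array only (92.1 against 131.9). miR-30b-3p, miR-384-5p, which shares the guides' seed, and miR-30f were measured on neither. The annotated miR-30f lies on the opposite strand of the miR-30e hairpin and overlaps miR-30e-3p by 19 bases.

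The miRNAs whose difference was nearest to the guides' median were miR-7224-3p (0.28), miR-7027-5p (0.29) and miR-7684-5p (0.29), among 494 brighter than the median. This likeness rests on 2 arrays.

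Of 9 miRNAs listed for epithelium, the labelled cell type (the miR-200 family with miR-192, miR-194, miR-215 and miR-375), 8 were measured in the control and 9 in the DSS sample. On both arrays 8 were measured, and 7 of these were higher with DSS (median 0.33), where 48.1% of the 995 miRNAs measured on both arrays were. Summed intensities over the blanks were 949.5 and 975.6 before scaling. Markers of other cells also passed the limit. Such counts alone show neither epithelium nor the other cells, since 1070 and 1169 of the 1899 miRNA probes passed it. Of 6 leukocyte miRNAs 3 were measured in the control and 4 in the DSS sample, with sums of 56.4 and 161.5 and a median difference of 0.24 over the 3 measured on both, while miR-142a-3p and miR-155-5p were on neither. Of 3 red cell miRNAs 2 were measured on each array (87.4 and 136.2, median 0.46), with miR-144-3p on neither. Of 6 smooth muscle and fibroblast miRNAs 5 were measured on each (1027.3 and 822.8, median 0.06), with miR-1a-3p on neither. The endothelial miR-126a-3p was measured on both (11.6 and 11.3, difference −0.06). The miR-30 guides are made in many cell types, and the part of these cells in their differences was not tested. In RNA from a mixed isolate, fewer cells of a type and less RNA per cell cannot be told apart.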

How the data were processed

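Total RNA of colonic epithelial cells was labelled with Hy5 (miRCURY kit) per the labels' protocols and hybridised to 1 array per group. The deposited scanner files hold a spot and a background intensity for 3200 spots, and scans at 3 gains were combined per the file headers. The authors' deposited table holds linear intensities. Recomputed here, each equals the spot minus the trimmed blank mean, times 0.563 (control) or 0.787 (DSS), with a median of 25 over listed probes. Probes under the limit of 2 SD are empty.

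Blank means used 896 blank spots without the 45 highest and the 45 lowest. Of the miRNA probes, 1 with a poor flag was left out. Spot intensities were corrected with normexp (limma 3.58.1, R 4.3.3, offset 50, all spots), log2 transformed and quantile normalised over 1899 probes. The background given per spot was subtracted only as an alternative. The software that read the spots and the probe sequences are unknown from the sources used. The number of arrays limits the precision. The procedure was tested on simulated data.

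All 8 members were named, with 6 fixed relatives and the 3 brighter miRNAs nearest to the guides' median. Members, lists and settings were chosen with earlier results of these data known. Alternatives covered scaling, background, source, detection limit and fold threshold.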

Additional observations from a re-analysis of the deposited data

How the results depend on the processing

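The guides' median of 0.28 became −0.87 with scaling to the spike controls, 0.15 with median scaling, 0.10 with no scaling, 0.044 with subtraction of the background given for each spot, 0.46 with normexp at offset 0, 0.54 with blank subtraction, 0.44 with subtraction of the blanks in the same block (chosen after the data were seen) and 0.60 in the authors' values. The cause was not tested, except that a single factor per array adds the same amount to every difference. The remaining 7 alternatives moved it by less than the 0.106 spread of control spots. The count of guides at 2-fold or more, 0, became 1 with scaling to the spike controls (miR-30a-5p, lower, as were 55.2% of all miRNAs), 1 with blank subtraction (miR-30d-5p, 1.08) and 1 in the authors' values. Single guides reversed with scaling to the spike controls (miR-30b-5p −0.89, miR-30c-5p −0.85, miR-30d-5p −0.63) and, for miR-30b-5p, with subtraction of the background given for each spot (−0.018). In total 4 of 48 such values reversed, 27 moved and 17 stayed within the spread of control spots. Detection limits at 3 SD, at the negative controls or above 9 in 10 No Probe spots (the last chosen after the data were seen) left 3 members on both arrays. The median of the member 3p arms and the 5p minus 3p median had no value, since 0 of these arms were measured on both arrays. With dim values included the median of the 3p arms was 0.18, and ran from −0.67 with scaling to the spike controls, and 0.03 with subtraction of the background given for each spot, to 1.55 with blank subtraction and 1.71 with the blanks of the same block. No paired analysis was possible because each group holds 1 array.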
